A study of Mus musculus with 2 samples.

Results

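The core circadian clock loop was followed through its 10 genes: the activators Arntl (also named Bmal1), Clock and Npas2, and the repressors Per1, Per2, Per3, Cry1, Cry2, Nr1d1 and Nr1d2. They were chosen by name, and all 10 were among the 20823 Ensembl genes of the deposited count table. The series held 2 messenger RNA libraries of mouse liver cells: 1 library labelled as 24 h after 300 mg/kg acetaminophen (APAP) given intraperitoneally in saline, and 1 library labelled with no agent (control). Both came from C57BL6J mice aged 8 weeks. After collagenase perfusion, CD31-positive endothelial cells and CD45-positive immune cells were removed by flow cytometry, and 20000 hepatocytes with high surface Cxcr2, a chemokine receptor, were collected. APAP is a painkiller whose reactive product, made by cytochrome P450 enzymes, injures hepatocytes. The sources used here do not give the number of animals behind a library or say whether the control received saline.

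In the clock loop, CLOCK or its relative NPAS2 pairs with BMAL1, binds E-box sequences and drives the Per, Cry and Nr1d genes. PER and CRY proteins then inhibit that pair. REV-ERB alpha and beta, the products of Nr1d1 and Nr1d2, form a further arm: they compete with ROR proteins at response elements (ROREs) and silence Arntl, Npas2 and, in part, Clock and Cry1. In liver the loop runs over the day, with Arntl and Npas2 transcripts high at another time than those of Nr1d1, Nr1d2 and Per3, and it times many metabolic genes. The labels gave no time of day for either library. A difference in the hour of collection and a difference due to APAP therefore cannot be told apart.

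The library totals were 51009898 counts for APAP and 52419864 for control. Albumin, the defining transcript of the labelled cell type, was at 45856 CPM in the APAP library, against 29194 in the control library, where CPM is counts scaled to an effective library total of 1000000 after TMM scaling (the trimmed mean of M-values, which sets the bulk of genes equal). Of 7 hepatocyte markers, Apoa1, Fgb and Tat were also higher in the APAP library on this scale. Ttr, Serpina1c and Cps1 were lower, at 3465, 2062 and 2612 CPM, against 4255, 2309 and 3661 in the control library. The gated receptor gene Cxcr2 had 2 and 0 counts in the APAP and control libraries, and Ptprc, which encodes CD45, was not listed. The CD31 gene Pecam1 was listed, at 96 counts for APAP and 25 for control. Each group had 1 library, so there was neither a replicate spread nor a test. A gene was called higher or lower when its CPM ratio, APAP over control, was at least 2-fold in that direction, 1 lay outside its 95% counting interval and its counts over both libraries came to 20 or more. Intervals cover counting error only, as there was no replicate spread. Reads without molecular identifiers are not independent molecules, so the intervals may be too narrow even for that error. In such sorted pools, fewer cells with a transcript and less transcript per cell cannot be told apart.

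Stretches of sequence around clock motifs are shown because the loop genes differ in which elements lie near their starts, and the loop works through these elements. Promoter windows from RefSeq on build GRCm38.p6, from 250 bases before to 50 after a start, were at hand for 9 of the 10 genes (13 windows), all but Per2. The E-box CACGTG, the E'-box CACGTT, the D-box TTATGTAA and its palindromic form TTACGTAA, the RORE core TAGGTCA and the cyclic AMP element TGACGTCA were searched on both strands. Capitals mark the matches, an E'-box on the other strand reading AACGTG.
Arntl: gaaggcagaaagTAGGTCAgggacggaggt
Cry1: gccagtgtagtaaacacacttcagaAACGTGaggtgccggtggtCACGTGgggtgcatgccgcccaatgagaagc
Per1: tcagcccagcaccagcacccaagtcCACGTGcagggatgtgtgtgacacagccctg
Per3: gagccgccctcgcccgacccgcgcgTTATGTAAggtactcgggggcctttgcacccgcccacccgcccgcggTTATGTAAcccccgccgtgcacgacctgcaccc
Cry2: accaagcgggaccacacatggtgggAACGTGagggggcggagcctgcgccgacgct
Nr1d1: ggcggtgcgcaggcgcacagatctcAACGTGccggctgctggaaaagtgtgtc

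The Arntl stretch lies at chr7:113207529-113207558 on the plus strand, where the RORE core begins at base 31 after a start. The Cry1 stretch, at chr10:85185084-85185158 on the minus strand, holds an E'-box beginning 79 bases and an E-box beginning 60 bases before the start. The Per1 stretch, at chr11:69098758-69098813 on the plus strand, holds an E-box beginning 166 bases before the start. In Per3 a pair of D-boxes began 205 and 158 bases before the start, at chr4:151044791-151044895 on the minus strand. The E'-boxes of Cry2 (chr2:92434205-92434260, minus strand) and Nr1d1 (chr11:98775378-98775430, minus strand) began 166 and 28 bases before their starts. None of these letters were in the windows of Clock, Npas2 and Nr1d2, and the palindromic D-box and the cyclic AMP element were in no clock window. Of 32851 promoter windows of all genes, 7.15% held the E-box, 4.68% the E'-box, 0.938% the D-box, 0.119% its palindromic form, 2.61% the RORE core and 1.79% the cyclic AMP element. A match is a description of the letters and no measure of binding.

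The comparison asks how clock transcripts of these sorted hepatocytes differed between the libraries. Arntl, Npas2 and Cry1 were called higher in the APAP library, by 4.24-fold, 4.71-fold and 2.49-fold. Per3 and Nr1d2 were called lower, by 2.84-fold and 2.34-fold. Clock, Per1, Per2, Cry2 and Nr1d1 met neither rule. Among all 14096 genes with at least 20 counts, 10.7% were called higher and 7.09% lower, against 3 and 2 of the 10 clock genes. All 10 clock genes had at least 20 counts.

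**Figure D1:**
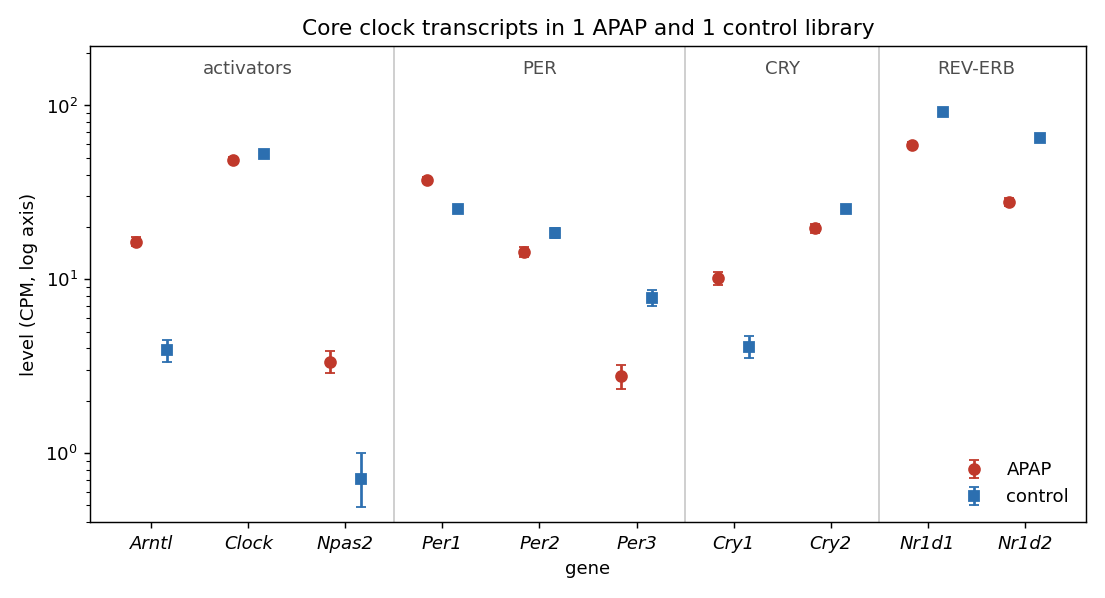
Level of each clock gene in CPM (log axis) in the APAP library (red circles) and the control library (blue squares), grouped by role, with exact 95% Poisson intervals that cover counting error only. Arntl, Npas2, Per1 and Cry1 lie higher in the APAP library, and the gap is wide for Arntl (16.5 against 3.89 CPM) and small for Clock (48.8 against 52.3 CPM).

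Arntl and Npas2 were called higher and Clock was not. Arntl (ENSMUSG00000055116), the obligate partner of the activating pair, had 948 counts in the APAP library and 181 in the control library, which is 16.5 against 3.89 CPM. Its fold was 4.24 (95% counting interval 3.61 to 4.99), and 3.72% of all genes with at least 20 counts had a higher log2 fold. Npas2 (ENSMUSG00000026077), which can stand in for CLOCK, had 192 and 33 counts in the APAP and control libraries, which is 3.34 against 0.710 CPM. Its fold of 4.71 (3.24 to 7.03) had an interval that overlapped that of Arntl. Clock (ENSMUSG00000029238), the acetyltransferase partner of BMAL1, had 2805 and 2432 counts in the APAP and control libraries, at 48.8 and 52.3 CPM. Its ratio was 0.933 (0.883 to 0.985), but it was 1.19 (1.12 to 1.25) when libraries were scaled by total counts, so no direction is given for Clock.

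The PER genes, whose products carry the CRY proteins into the nucleus, spread over both sides of 1. Per1 (ENSMUSG00000020893) had 2142 counts in the APAP library and 1180 in the control library, at 37.3 and 25.4 CPM. Its ratio was 1.47 (1.37 to 1.58), short of the 2-fold rule. Per2 (ENSMUSG00000055866) had 824 and 862 counts in the APAP and control libraries, at 14.3 and 18.5 CPM, a ratio of 0.773 (0.702 to 0.852). Per3 (ENSMUSG00000028957), the PER gene that the rhythm itself can do without, had 159 and 365 counts in the APAP and control libraries, at 2.77 and 7.85 CPM. It was 2.84-fold lower (2.35 to 3.44), the lowest fold of the 10 genes, and its interval overlapped that of Nr1d2. With total counts the ratio of Per2 was 0.982 (0.892 to 1.08), an interval that held 1.

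The cryptochromes, the direct inhibitors of the activating pair, also differed from each other. Cry1 (ENSMUSG00000020038) had 581 counts in the APAP library and 189 in the control library, at 10.1 and 4.06 CPM, and was 2.49-fold higher (2.11 to 2.95). It was the only repressor called higher, and 7.95% of all genes with at least 20 counts had a higher log2 fold. Cry2 (ENSMUSG00000068742) had 1130 and 1179 counts in the APAP and control libraries, at 19.7 and 25.4 CPM. Its ratio was 0.775 (0.714 to 0.842), or 0.985 (0.907 to 1.07) with total counts. Exons of Cry2 share 295 bases, 4.67% of its exon length, with D930015M05Rik on the opposite strand, which had 11 counts in each library.

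The REV-ERB genes, which encode nuclear receptors that bind haem and repress transcription, had ratios below 1. Nr1d1 (ENSMUSG00000020889) had 3414 counts in the APAP library and 4291 in the control library, at 59.4 and 92.3 CPM. It was 1.55-fold lower (1.49 to 1.63), which did not meet the 2-fold rule. Nr1d2 (ENSMUSG00000021775) had 1598 and 3027 counts in the APAP and control libraries, at 27.8 and 65.1 CPM, and was 2.34-fold lower (2.20 to 2.49). Of all genes with at least 20 counts, 13.0% had a lower log2 fold than Nr1d1 and 5.38% a lower one than Nr1d2. Exons of Nr1d1 share 263 bases, 8.55% of its exon length, with Thra, the thyroid hormone receptor gene on the opposite strand. Thra had 646 counts in the APAP library and 591 in the control library, and because the strand setting of the counting was not given, reads of the shared bases cannot be assigned. With total counts Nr1d2 had a ratio of 0.543 and was no longer called. Per3 was then the only clock gene called lower, beside the same 3 called higher. Among all 14096 genes with at least 20 counts, 2435 were called higher and 626 lower with total counts.

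**Figure D2:**
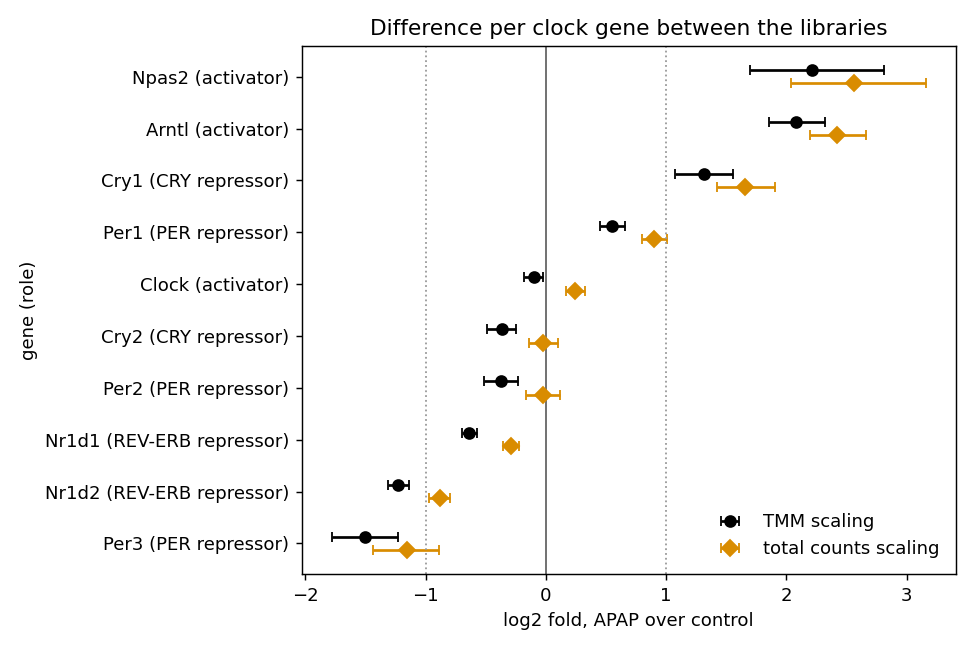
Log2 fold of each clock gene, APAP over control, in order of size, with TMM scaling (black circles) and with total counts (orange diamonds); bars are 95% counting intervals, and dotted lines mark a 2-fold difference. Arntl, Npas2 and Cry1 lie beyond the upper line with both scalings, Per3 lies beyond the lower line with both, and Clock changes side.

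As roles, the activators had a median log2 fold of 2.08, with 2 of 3 called higher and 0 lower. The repressors had a median of -0.37, with 1 of 7 called higher and 2 lower. These counts stand beside 10.7% higher and 7.09% lower of all genes. The median of all genes with at least 20 counts was 0.02. Scaling by total counts added 0.35 to every log2 fold and put these medians at 2.43, -0.026 and 0.37. It also moved the share of higher genes among all genes called to 79.5%, against 60.2% with TMM scaling. The repressor median lay below that of all genes. Total counts moved both medians by the same amount, so their order could not change, and put the repressor median close to 0. In order of fold the 10 genes ran from Npas2, Arntl, Cry1 and Per1 through Clock, Cry2 and Per2 to Nr1d1, Nr1d2 and Per3. Intervals of neighbours in this order overlapped for Npas2 and Arntl, for Cry2 and Per2, and for Nr1d2 and Per3. If read mates were counted separately, these intervals are too narrow. With halved counts those of Clock (0.863 to 1.01) and Cry2 (0.690 to 0.872) overlapped too. So did those of Per2 (0.674 to 0.887) and Nr1d1 (0.604 to 0.686), so these places in the order are not settled.

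**Figure D3:**
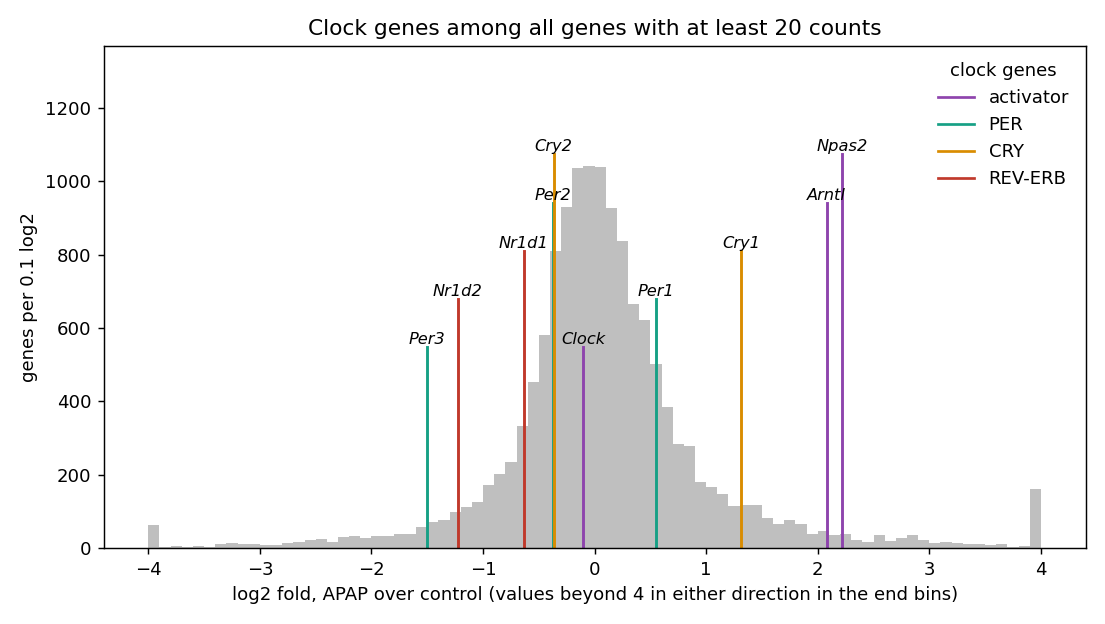
Histogram of the log2 fold, APAP over control, of the 14096 genes with at least 20 counts (grey, genes per 0.1 log2), with the clock genes as lines coloured by role whose heights have no meaning. Clock, Cry2 and Per2 lie in the central peak, and Npas2 and Arntl lie at 2.22 and 2.08 in the right tail.

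Ratios of clock transcripts within a library do not depend on how libraries are scaled. For 1 Nr1d1 count there were 0.278 Arntl counts in the APAP library and 0.0422 in the control library, a difference of 6.58-fold (5.57 to 7.81). Against Nr1d2 the Arntl ratio was 0.593 in the APAP library and 0.0598 in the control library, 9.92-fold higher (8.35 to 11.8). The activator-to-repressor ratio was higher in the APAP library, with an interval above 1, for 19 of the 21 pairs. These pairs share genes and are not independent. The direction of each pair restates the order of fold given above, in which Arntl and Npas2 stood above every repressor. All 7 pairs with Arntl ranged from 1.70-fold to 12.02-fold, and all 7 with Npas2 from 1.89-fold to 13.4-fold. The exceptions were the pairs of Clock with Per1, at 0.635 (0.580 to 0.695), and of Clock with Cry1, at 0.375 (0.314 to 0.447). The other 5 pairs with Clock reached 2.65-fold at most.

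**Figure D4:**
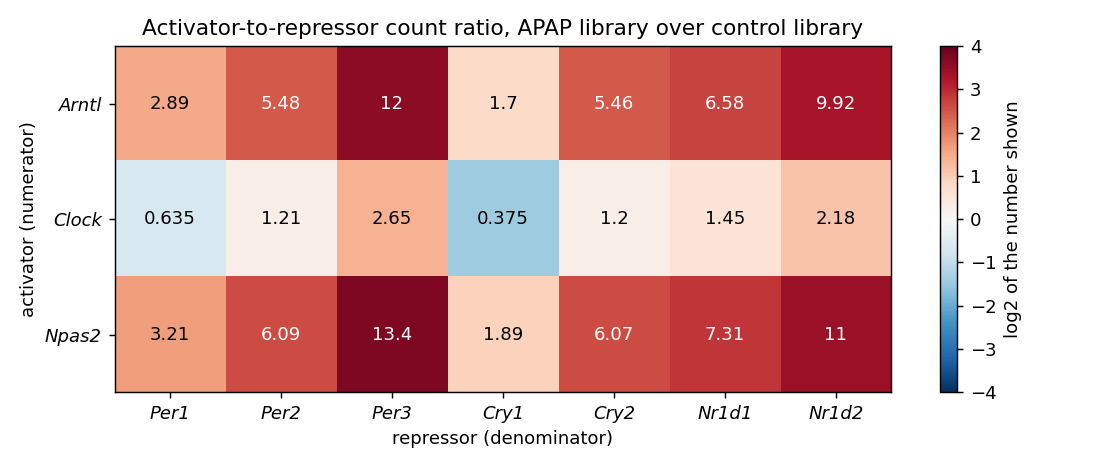
Count ratio of each activator (rows) to each repressor (columns) in the APAP library divided by the same ratio in the control library; the number in a cell is that quotient and the colour its log2. The rows of Arntl and Npas2 lie above 1 throughout, and the row of Clock holds 2 cells below 1.

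Ratios between related genes also differed between the libraries. Npas2 counts were 0.0684 of Clock counts in the APAP library and 0.0136 in the control library, 5.04-fold higher (3.46 to 7.57). Cry1 counts were 0.514 of Cry2 counts in the APAP library and 0.160 in the control library, 3.21-fold higher (2.66 to 3.87). Per1 relative to Per2 was 1.90-fold higher (1.68 to 2.14), at 2.60 against 1.37. The Per3 to Per2 ratio was 0.193 in the APAP library and 0.423 in the control library, 2.19-fold lower (1.77 to 2.72). Nr1d1 relative to Nr1d2 was 1.51-fold higher (1.40 to 1.63), at 2.14 against 1.42. In each of these pairs the related genes thus differed between the libraries to unequal degrees.

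Levels can be compared between genes only per length, here as CPM per kilobase of annotated exon. On this scale Nr1d1 led in each library, at 19.3 in the APAP library and 30.0 in the control library. Per1 was next in the APAP library, at 6.62, and Nr1d2 followed at 5.14. In the control library Nr1d2 was next, at 12.03, and Per1 followed at 4.51. Arntl had 2.19 CPM per kilobase in the APAP library and 0.517 in the control library. Cry1 had 3.03 in the APAP library, where its interval overlapped that of Cry2 at 3.11, and 1.22 in the control library, where Cry2 was at 4.01. Per3 was lowest in the APAP library, at 0.288, and Npas2 was lowest in the control library, at 0.148. Intervals of neighbours in these orders also overlapped for Per2 and Arntl in the APAP library and for Cry2 and Clock in the control library, and all other neighbours were apart. These orders depend on the length used. With the longest coding transcript as length, Arntl was at 5.54 in the APAP library, rank 4 of 10 and above Per2 at 2.46, and at 1.31 in the control library. On that length Cry2, at 6.38, stood above Per1, at 5.43, in the control library.

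The genes most like the highest and lowest clock gene were sought by distance in log2 CPM over the 2 libraries alone. Nearest to Npas2 were Fam198a, St3gal2 and Sgce, with log2 folds of 2.17, 2.24 and 2.10. Nearest to Per3 were Maff, Grik5 and Rasa3, with log2 folds of -1.56, -1.49 and -1.33. With 2 libraries such a likeness says only that level and fold were close.

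The PAR bZIP, DEC and ROR factors link the loop to its output or feed back on it. Of 9 genes of this group, 1 was called higher, 3 were called lower and 5 met neither rule, over log2 folds from -3.95 to 1.41, beside the 10.7% higher and 7.09% lower of all genes. Dbp, a D-box activator driven by E-boxes, had 2.99 CPM in the APAP library, against 46.4 in the control library, and was 15.5-fold lower (13.3 to 18.2). Its D-box relatives Tef and Hlf were at ratios of 0.437 (0.414 to 0.460) and 0.577 (0.545 to 0.611), of which Tef was called lower. With total counts Tef had a ratio of 0.555 (0.526 to 0.585), and 2 genes of the group were then called lower, beside 626 of all 14096 genes. Nfil3, the D-box repressor silenced by REV-ERB, had 51.2 CPM in the APAP library, against 19.3 in the control library, and was 2.65-fold higher (2.46 to 2.86). Bhlhe41, an E-box repressor also named Dec2, was 5.47-fold lower (3.86 to 7.92), at 0.696 against 3.81 CPM, while its relative Bhlhe40 had a ratio of 1.17. Rora, which activates through ROREs, had a ratio of 1.30 (1.24 to 1.37). Thus Nfil3 stood on the side of Arntl, Npas2 and Cry1, and Dbp, Tef and Bhlhe41 on that of Per3 and Nr1d2.

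Clock proteins are also set by kinases that mark them, ligases that direct their breakdown and other modifiers. Of 18 genes of this list, not all of them for kinases or ligases, 2 were called higher and 1 lower. This is close to the all-gene shares of 10.7% and 7.09%. Their median log2 fold was -0.12, and 0.22 with total counts, where the same numbers were called. Timeless was 3.24-fold higher (2.52 to 4.19) and the PER kinase gene Csnk1e was 2.57-fold higher (1.87 to 3.59), while Csnk1d, which encodes a related kinase, had a ratio of 1.06. The deubiquitinase gene Usp2, itself a clock target, was 4.16-fold lower (3.63 to 4.79), at 4.64 against 19.3 CPM. Ddb1 and Csnk1a1, the members with the most CPM, had ratios of 1.40 (1.37 to 1.44) and 0.942 (0.903 to 0.983). With total counts the ratio of Csnk1a1 was 1.20 (1.15 to 1.25), so no direction is given for it. Of 6 genes of the corepressor complex that REV-ERB recruits, 0 were called, and Ncor1 and Hdac3 had ratios of 0.718 (0.692 to 0.744) and 0.950 (0.875 to 1.03).

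Target genes outside the loop were counted from short lists. Of 8 liver genes known as E-box targets of CLOCK and BMAL1, 0 were called higher and 4 lower, beside 10.7% and 7.09% of all genes, and the median log2 fold was -0.97. The called genes were Usp2, Wee1, a kinase gene of mitotic entry that was 3.39-fold lower (2.71 to 4.26), Tsku, 2.52-fold lower (2.44 to 2.59), and Ppara, 2.03-fold lower (1.95 to 2.11). With total counts Tsku and Ppara, at ratios of 0.505 and 0.626, were no longer called, which left 2 lower and a median of -0.63. Of all 14096 genes with at least 20 counts, 2435 were called higher and 626 lower with that scaling. Nampt, the NAD salvage enzyme gene, had a ratio of 1.14 (1.08 to 1.21). Of 5 genes known to be repressed by REV-ERB, Nfil3 was called higher and 2 were called lower: the fatty acid elongase gene Elovl3, 2.40-fold lower (2.33 to 2.47), and the fatty acid transporter gene Cd36, 6.90-fold lower (6.01 to 7.95). With total counts Elovl3 had a ratio of 0.529 (0.513 to 0.544), and 1 gene was then called lower. The REV-ERB list therefore had no common direction.

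**Figure D5:**
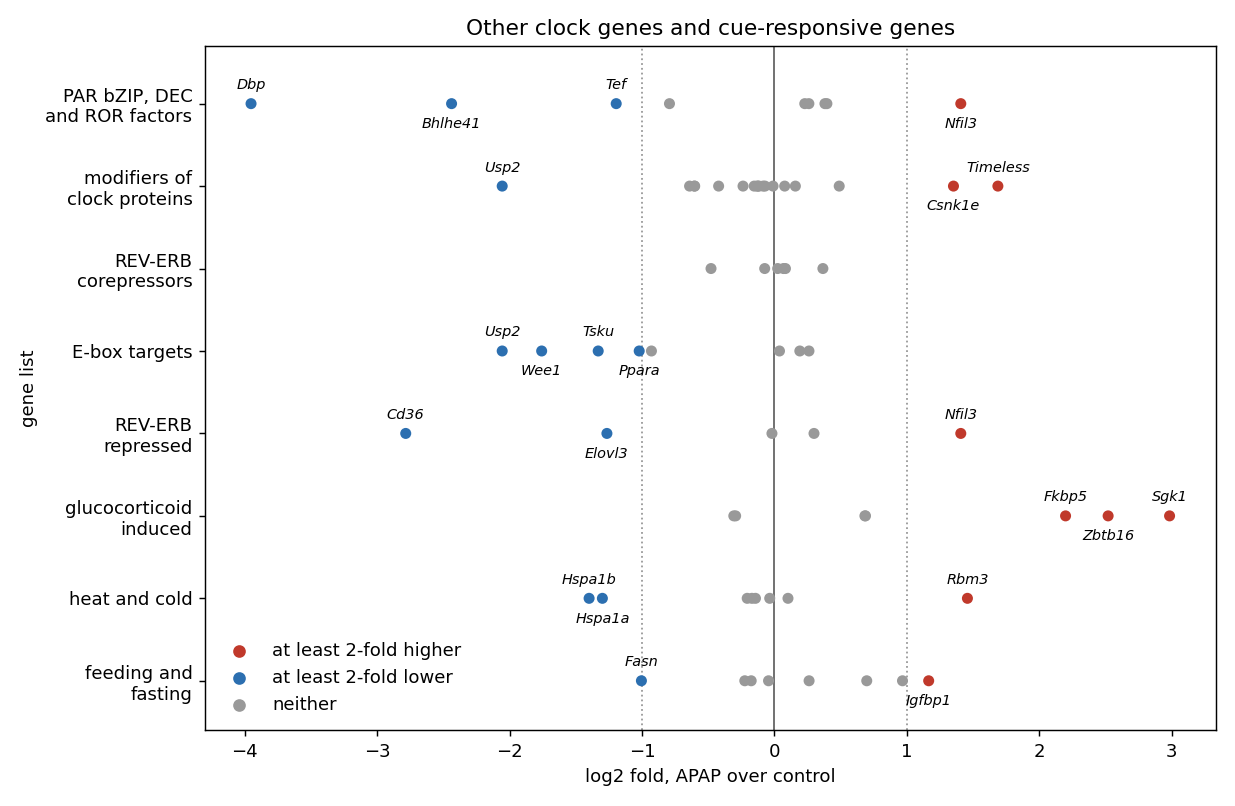
Log2 fold, APAP over control, of each gene of the lists of other clock genes, clock targets and cue-responsive genes; red marks genes called higher, blue genes called lower and grey genes that met neither rule, and dotted lines mark a 2-fold difference. Dbp lies farthest to the left, and Nfil3 lies alone among the called genes to the right in its list of factors.

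Clock genes also answer to hormones, temperature and feeding, and genes of these cues were read beside them. Glucocorticoids, which act on Per1 and Per2 directly, are known to induce Fkbp5, Sgk1 and Zbtb16. These were 4.59-fold (4.25 to 4.96), 7.92-fold (6.96 to 9.05) and 5.74-fold (5.24 to 6.29) higher, and 3 of 7 genes of that list were called higher and 0 lower, beside 10.7% and 7.09% of all genes. The other 4 were Tsc22d3, Tat, Klf9 and Dusp1, at ratios of 1.61, 1.61, 0.816 and 0.808. With total counts Tsc22d3 and Tat reached 2.04 (1.96 to 2.13) and 2.05 (2.03 to 2.06), so that 5 of 7 were called higher. Klf9 and Dusp1 then stood above 1, at 1.04 and 1.03. The background rose too, as 2435 of all 14096 genes with at least 20 counts were called higher and 626 lower with total counts. Of 8 heat and cold genes 1 was called higher and 2 lower, beside the same 10.7% and 7.09% of all genes. The cold-induced Rbm3 was 2.75-fold higher (2.47 to 3.07), and the heat shock genes Hspa1a and Hspa1b were 2.46-fold and 2.64-fold lower. The other 5 met neither rule. Cirbp had a ratio of 0.889 (0.766 to 1.03), and Hsph1, Dnajb1, Hsp90aa1 and Hspa8 had ratios of 1.07, 0.976, 0.906 and 0.867. Hspa1a had a ratio of 0.516 with total counts, which left 1 gene of that list called lower. Of 8 feeding and fasting genes, Igfbp1 was called higher, at 2.24-fold, and Fasn lower, at 2.01-fold. This count changed with total counts, where Igfbp1, Pck1, at 2.48, and Pdk4, at 2.06 (1.65 to 2.59), were called higher and 0 genes lower, with Fasn at a ratio of 0.633. The part of these cues in the clock values was not tested.

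Markers of other cells differed in the same libraries. Summed over its list, the level was 15.6 CPM in the APAP library, against 14.0 in the control library, for 8 of 8 listed endothelial markers, 5.76 against 0.0645 CPM for 4 of 8 leukocyte and macrophage markers, and 10.8 against 1.10 CPM for 7 of 8 stellate cell and fibroblast markers. The endothelial sum turned on Stab2, at 3.98 against 8.32 CPM, and without it was 11.6 against 5.68 CPM. Of the endothelial markers 4 were called higher and 1, Stab2, lower, beside 10.7% and 7.09% of all genes, with a median log2 fold of 1.23. With total counts 6 were called higher and 0 lower, beside 2435 and 626 of all 14096 genes with at least 20 counts. Reln alone made up 9.39 CPM of the stellate sum for APAP, against 0.753 CPM for control, and without it the sum was 1.43 against 0.344 CPM. Cd68 gave 4.99 CPM of the leukocyte sum in the APAP library, and the rest was 0.765 against 0 CPM. Biliary markers summed to 34.3 CPM in the APAP library, against 3.01 in the control library, from Sox9 and Spp1 alone, as Krt19, Krt7, Epcam and Cftr were not listed. Of 6 neutrophil markers Ly6g alone was listed, with 2 and 0 counts in the APAP and control libraries. Ptprc, Adgre1 and Clec4f were not listed, and Csf1r, Lyz2, Cd5l, Col1a1, Col3a1 and Pdgfrb had 0 counts in the control library. The part of such cells in the clock values was not tested.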

How the data were processed

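Messenger RNA of 1 APAP and 1 control library was measured. Per the submitters' processing notes, HISAT2, Subread and the build mm39 were used; their versions, the annotation, the strand setting and the handling of read pairs are not stated in the sources used here. The deposited raw counts per Ensembl gene were not normalized by the authors. The deposited normalized signal was each count divided by 1 size factor per library, 1.12 for APAP and 0.894 for control, equal to DESeq2 size factors. All results start from the raw counts.

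Symbols came from a reference table that matched 20679 of 20823 identifiers. Exon lengths and overlaps came from GENCODE M21, which is of another build, so no gene coordinates are given. Libraries were scaled with TMM factors of edgeR 4.0.16 (R 4.3.3), 1.13 for APAP and 0.887 for control, and 1 count was worth 0.0174 CPM for APAP and 0.0215 CPM for control. Fold intervals are exact conditional Poisson intervals at 95%, ratios of ratios have exact conditional intervals, and log2 folds used a prior of 0.5 counts. Alternatives were scaling by total counts, DESeq2 1.42.0 size factors, upper quartile, the deposited normalized signal and totals without genes above 1% of a library; halved counts; folds of 1.5 and 3; minimum counts; a prior of 2; and, for levels per length, the longest coding transcript. The steps were tested on simulated independent Poisson counts, which is the model that the intervals assume. That checks the code and cannot show whether the intervals are wide enough for these libraries. Python 3.11.15, numpy 2.4.6, scipy 1.17.1 and pandas 2.3.3 were used.

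The members, lists, motifs and named genes were chosen with earlier results of these data known. Named were all 10 clock genes, the members of lists of up to 12 genes, for longer lists those farthest in each direction and the most abundant, and 3 genes nearest to the highest and to the lowest clock gene. Csnk1d was named outside that rule, after its value was seen. Some genes of the lists are not reported here and were left out of the list counts.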

Additional observations from a re-analysis of the deposited data

How the results depend on the processing

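No paired analysis was possible because the labels give no replicate numbers and each group has 1 library. DESeq2 size factors, upper quartile factors, the deposited normalized signal, halved counts and no count minimum left each count of called genes within 1.5 times its main value. The prior does not enter the calls, so a prior of 2 could not change these counts. The first 3 settings and a prior of 2 left the role medians within the counting interval of their middle gene. With total counts, 2435 genes were called higher and 626 lower among all genes, against 1513 and 999, 1 clock gene was called lower (Per3), and the medians were 2.43 for activators and -0.026 for repressors. Totals without genes above 1% of a library gave 2423 and 629 genes, 1 clock gene lower and medians of 2.42 and -0.030. With a 1.5-fold rule 2485 genes were higher and 1843 lower, 3 clock genes were lower (Nr1d1 added), and 8 of 33 other clock genes were lower, against 4. With a 3-fold rule these were 856 and 502 genes, 2 clock genes were higher (Arntl and Npas2, not Cry1), 0 were lower and 1 other clock gene was higher, against 3. A minimum of 100 counts gave 817 and 634 genes. Of 60 log2 folds of clock genes under other scalings or priors, 18 moved beyond their counting interval. All 18 were with total counts or totals without genes above 1% of a library, where every clock gene but Npas2 moved. The deposited normalized signal has the same scaling as DESeq2 size factors, so its folds among the 60 repeat theirs. Of 20 ranks of level per length, 7 moved with the longest coding transcript as length, among them Arntl in the APAP library, which stood at 4 in place of 8. Low counts were mostly even: 70.6% of counts from 1 to 20 in the APAP library and 68.3% in the control library. If read mates were counted separately, intervals are too narrow: with halved counts the interval of Clock held 1 (0.863 to 1.01), and those of the 5 called clock genes still excluded 1.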
